A study of Mus musculus with 12 samples.

Results

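Oncostatin M (*Osm*), leukemia inhibitory factor (*Lif*), the PIM kinases and the feedback genes of cytokine signaling were followed in cultured mouse female germline stem cells (FGSCs) in which *Stella*, listed as *Dppa3*, had been knocked out or overexpressed. The set held 10 of the 24813 genes in the table: the IL-6 family cytokines *Osm* and *Lif*, the kinases *Pim1*, *Pim2* and *Pim3*, the inhibitors *Cish*, *Socs1*, *Socs2* and *Socs3*, and the transcription factor *Stat5b*. Together they were listed as 19 of 41388 RefSeq transcripts. The genes were chosen by their levels in the 4 groups described below, so their values and calls are given as a description, with no p, and nothing is supported by them.

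The 12 RNA-seq libraries fell into 4 groups of 3. The group labelled dppa3-ko (KO) was 1 knockout clone made with CRISPR/Cas9 and lentiviral sgRNAs, and the group labelled DPPA3-ko-control (KO-con) was its control. The group labelled DPAA3-over (Over) carried *Stella* in a lentiviral vector under puromycin selection, and the group labelled dppa3-over-control (Over-con) carried the empty vector. All groups were of strain C57BL/6, had been passaged more than 20 times, and grew on inactivated mouse STO feeder cells in medium with LIF protein at 10 ng/mL. The paper gives fewer generations for the knockout and overexpressing lines selected for its experiments, and how these counts relate was not resolved here. What the KO-con cells carried is not given in the sources used here. An effect of the knockout and a property of the 1 clone cannot be told apart. Nothing states that the replicates were separate cultures, so errors and p-values measure the spread between these libraries, which may be technical.

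IL-6 family cytokines such as OSM and LIF bind receptors that contain gp130 (*Il6st*) and activate JAK kinases, which phosphorylate STAT transcription factors. *Osm*, *Pim1*, *Cish* and *Socs2* are textbook targets of STAT5, which cytokines such as IL-2, IL-3 and erythropoietin activate. PIM proteins are serine/threonine kinases that need no activating phosphorylation, so that their abundance largely sets their activity, and they favor survival and protein synthesis. CISH and the SOCS proteins are induced by STATs and damp the receptors that induced them.

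Library totals lay between 5611846 and 12866545 counts, so that 3 counts, taken as the smallest amount shown, equalled 0.233 to 0.527 CPM (counts scaled to the library total, corrected with TMM factors). Floors cover counting error only. *Dppa3* had 347, 371 and 285 counts in the Over libraries and 0 in the other 9, KO-con included, so its counts did not separate KO from KO-con. Of 10 germ cell markers, 5 exceeded 3 counts in a library: *Dppa3*, in Over alone, *Ifitm3*, *Prdm1*, *Sycp3* and *Nanos2*. *Prdm1*, *Sycp3* and *Nanos2* had at most 21, 24 and 4 counts. *Stra8*, of 1 transcript, had at most 1 count. *Ddx4*, *Dazl* and *Pou5f1*, each listed as 2 transcripts, had at most 1 count in any library, whereas *Ifitm3* had 667 to 1711. Of 10 fibroblast markers 7 exceeded 3 counts, with a summed level of 878 to 1582 CPM over the 12 libraries. The feeder cells are of the same species, and their share of these counts was not tested. Of 10 mast cell markers 4 exceeded 3 counts, and their sum, nearly all *Cpa3*, was 1156 to 1228 CPM in KO, 367 to 434 in KO-con, 646 to 671 in Over and 753 to 860 in Over-con. The defining mast cell marker *Fcer1a*, of 1 transcript, was at 0 throughout. The sum of 10 macrophage markers, of which 5 exceeded 3 counts, was 33.7 to 51.7 CPM. Most of this sum was *Cd68*, with 155 to 542 counts in its counted transcript. *Cd14* had 29 to 117 counts, *Csf1r* 3 to 18, *Lyz2* 2 to 11 and *Mrc1* 0 to 8, whereas *C1qa* and *C1qb* were at 0. The mast cell sum was lowest in KO-con and highest in KO, and its part in the values of the members was not tested. In such bulk samples, fewer cells of a type and less RNA per cell cannot be told apart.

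The promoters of the set were searched for the palindromic STAT motif TTCNNNGAA, whose letters read the same on both strands. RefSeq promoters of GRCm38.p6, 300 bases each with 250 before the start, were given for 8 of the 10 genes, *Osm* and *Socs2* lacking an entry. The motif stood in 2 of the 10 promoters of these 8 genes, against 8.3% of all 32851 promoters. The *Cish* promoter held 2 copies, TTCCTGGAA from the first base of the transcript and TTCTTGGAA from base 12, and 2 or more copies stood in 0.457% of all promoters. The *Socs3* promoter held TTCTTAGAA from base -154 relative to the start. Both are shown with *Pim2*, the member with the largest fold change, whose 300 bases held none. Each stretch runs 5′ to 3′ on the strand of the gene, from 170 bases before the start through 30 from it, with the motif in capitals. A match is a description of letters and not a binding site.
Cish, chr9:107296489-107296688, plus strand: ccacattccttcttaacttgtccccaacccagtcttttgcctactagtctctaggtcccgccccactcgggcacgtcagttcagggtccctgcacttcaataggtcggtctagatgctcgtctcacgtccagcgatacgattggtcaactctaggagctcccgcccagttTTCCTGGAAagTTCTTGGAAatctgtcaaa
Socs3, chr11:117969337-117969536, minus strand: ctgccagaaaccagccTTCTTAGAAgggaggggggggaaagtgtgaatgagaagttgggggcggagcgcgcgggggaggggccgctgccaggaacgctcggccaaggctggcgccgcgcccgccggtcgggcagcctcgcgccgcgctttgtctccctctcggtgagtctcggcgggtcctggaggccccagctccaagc
Pim2, chrX:7878136-7878335, plus strand: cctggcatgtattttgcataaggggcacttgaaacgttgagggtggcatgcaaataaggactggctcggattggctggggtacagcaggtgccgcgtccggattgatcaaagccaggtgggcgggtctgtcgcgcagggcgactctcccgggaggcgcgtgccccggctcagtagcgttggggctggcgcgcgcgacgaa

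Most members were highest in KO-con. By the transcript with the most counts, KO-con had the highest mean of the 4 groups for 9 of the 10 genes, *Stat5b* being the exception. For 8 genes, all but *Socs2* and *Stat5b*, every KO-con library lay above every KO library. Of all 9457 transcripts tested, 14.5% had their KO libraries wholly below KO-con, and the genes were chosen by these levels. No share over all transcripts is given for KO-con as the highest mean, so nothing is read from that count. *Socs3* differed from the rest in that its KO libraries alone stood apart, below all others. The plot of CPM by library shows all of them.

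**Figure D1:**
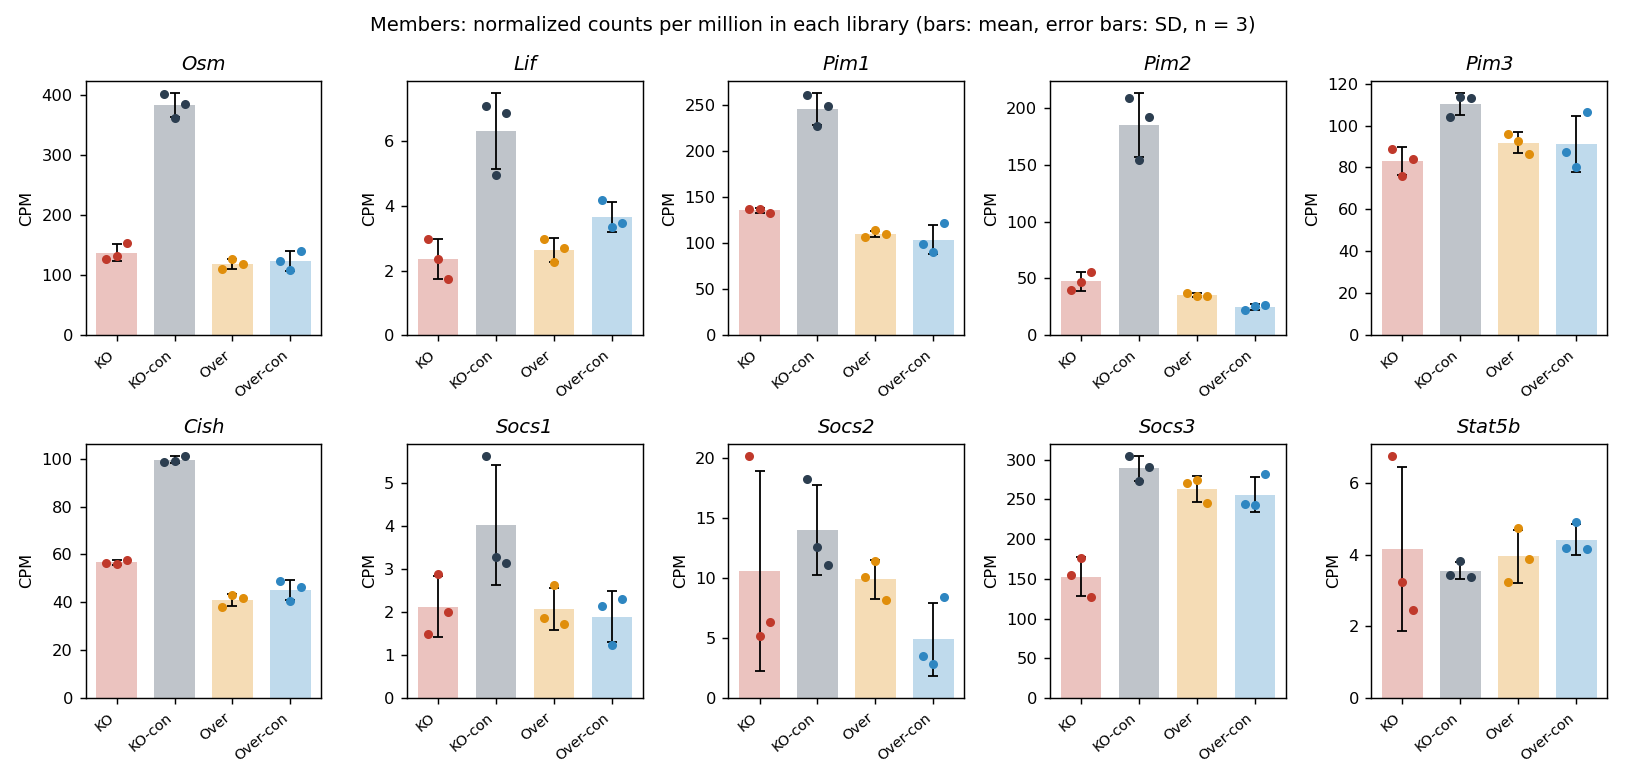
Level of each member in CPM, normalized over the 12 libraries, for the transcript with the most counts; points are libraries, bars are means and error bars are SD (n = 3). The KO-con libraries of *Osm* lie between 362 and 402 CPM and the other 9 between 108 and 154, whereas for *Socs3* the KO libraries alone lie apart, at 127 to 177 CPM.

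*Osm* (NM_001013365; mm9 chromosome 11 from 4136423 to 4141029, plus strand) encodes the cytokine oncostatin M. It had 402, 362 and 385 CPM in KO-con, and 127, 132 and 154 CPM in KO. It had 111, 126 and 119 CPM in Over, and 123, 108 and 140 CPM in Over-con. The KO-con libraries lay above all others, and the other 3 groups overlapped. The means were 383 ± 20.0 CPM (SD, n = 3) in KO-con, 137 ± 14.4 in KO, 119 ± 7.68 in Over and 124 ± 15.9 in Over-con. The log2 fold change of KO against KO-con was -1.47 (SE 0.08), a 2.77-fold lower level. That of Over against Over-con was -0.07 (SE 0.09), and that of KO-con against Over-con was 1.63 (SE 0.09).

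*Lif* lies 16530 bases beyond *Osm* on the same strand, from 4157560 to 4172517 in mm9, and encodes the cytokine that was also added to the medium. It was much less counted. Its main transcript NM_008501 had 68, 56 and 57 counts in KO-con and 26, 27 and 19 in KO, or 7.09, 4.97 and 6.88 CPM against 2.98, 2.36 and 1.72 CPM. It had 2.96, 2.25 and 2.69 CPM in Over and 4.19, 3.34 and 3.47 CPM in Over-con. KO-con lay above all other libraries, and Over lay below Over-con without overlap. The log2 fold change was -1.42 (SE 0.25) for KO against KO-con, -0.50 (SE 0.25) for Over against Over-con and 0.76 (SE 0.23) for KO-con against Over-con. The call in the last of these was lost without KO-con replicate 1, without KO-con replicate 3 or without Over-con replicate 2, at log2 fold changes within 0.67 to 0.91. The second transcript, NM_001039537, had 17 to 37 counts in a whole group, and its groups overlapped between neighbors in the order of means.

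The PIM kinases differed among themselves in the size of the gap. *Pim2* (NM_138606; mm9 chromosome X from 7455388 to 7460558, plus strand) had 209, 154 and 192 CPM in KO-con and 39.7, 46.5 and 56.1 CPM in KO. It had 37.3, 34.4 and 34.7 CPM in Over and 22.3, 26.2 and 26.9 CPM in Over-con. All 4 groups were apart from one another, in the order KO-con, KO, Over and Over-con, and the highest mean was 7.38 times the lowest. The log2 fold change was -1.95 (SE 0.12) for KO against KO-con, a 3.87-fold lower level, and 2.89 (SE 0.11) for KO-con against Over-con. *Pim2* was also the one member called in Over against Over-con, with a log2 fold change of 0.49 (SE 0.10), a 1.41-fold higher level. That call was lost without any of the Over replicates 1, 2 and 3 and without Over-con replicate 1, where the log2 fold change stayed at 0.41 or above.

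*Pim1* (NM_008842; mm9 chromosome 17 from 29627757 to 29632390, plus strand) showed a smaller gap. It had 261, 227 and 249 CPM in KO-con, and 137, 137 and 132 CPM in KO. It had 107, 114 and 109 CPM in Over, and 99.5, 90.2 and 122 CPM in Over-con. KO lay below KO-con and above Over and Over-con without touching them, and Over and Over-con overlapped. The log2 fold changes were -0.85 (SE 0.07) for KO against KO-con, 0.07 (SE 0.09) for Over against Over-con and 1.24 (SE 0.09) for KO-con against Over-con. Its second transcript NM_001364913 had a mean of 7.34 ± 1.59 CPM (SD, n = 3) in KO-con against 5.53 ± 1.51 in KO, with overlap.

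*Pim3* (NM_145478; mm9 chromosome 15 from 88692616 to 88696150, plus strand) varied least of the kinases. It had 104, 113 and 113 CPM in KO-con and 89.0, 75.9 and 84.1 CPM in KO. It had 96.2, 92.9 and 86.3 CPM in Over and 87.4, 80.2 and 106 CPM in Over-con. KO-con lay above KO and Over, but Over-con replicate 3 reached into it. The log2 fold changes were -0.41 (SE 0.08) for KO against KO-con, -0.01 (SE 0.09) for Over against Over-con and 0.27 (SE 0.10) for KO-con against Over-con. Without Over-con replicate 3 the last was 0.39 and became a call.

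Among the feedback inhibitors, *Cish* followed *Osm*. *Cish* (NM_009895; mm9 chromosome 9 from 107198357 to 107205115, plus strand), which encodes an SH2 protein that competes with STAT5 at cytokine receptors, had 98.8, 99.0 and 101 CPM in KO-con and 56.3, 56.0 and 57.7 CPM in KO. It had 38.2, 43.0 and 41.8 CPM in Over and 48.8, 40.7 and 46.4 CPM in Over-con. KO-con was highest and KO next, apart from the overlapping Over and Over-con. The log2 fold changes were -0.81 (SE 0.08) for KO against KO-con, -0.16 (SE 0.09) for Over against Over-con and 1.13 (SE 0.09) for KO-con against Over-con. This is the gene whose promoter held both STAT motifs at its start. Its other transcript, NM_001317354, was at 0 in all libraries.

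*Socs3* (NM_007707; mm9 chromosome 11 from 117827393 to 117831361, minus strand), the inhibitor that binds gp130, did not set KO-con apart. It had 155, 177 and 127 CPM in KO, and 304, 273 and 290 CPM in KO-con. It had 270, 275 and 245 CPM in Over, and 244, 242 and 282 CPM in Over-con. Only KO lay apart, below the other 9 libraries, whose groups overlapped between neighbors. The log2 fold change was -0.92 (SE 0.10) for KO against KO-con, 0.03 (SE 0.07) for Over against Over-con and 0.18 (SE 0.08) for KO-con against Over-con. Without Over-con replicate 3 the last was 0.25 and became a call. With Over-con in place of KO-con, the log2 fold change of KO was -0.75, and *Socs3* was the one member called lower in KO against either control.

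*Socs1* and *Socs2* were scarce. *Socs1* (NM_001271603), the inhibitor of JAK kinases, had 54, 37 and 26 counts in KO-con, 13, 33 and 22 in KO, 20, 34 and 16 in Over, and 21, 7 and 24 in Over-con. KO-con was highest in CPM without overlap with KO, and its log2 fold change against KO was not called (KO against KO-con, -0.89, SE 0.31). KO-con against Over-con gave 1.02 (SE 0.31), a call lost without KO-con replicate 1, Over-con replicate 1 or Over-con replicate 2, with 0.71 as the lowest value. The other *Socs1* transcript, NM_009896, was at 0 in all libraries.

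*Socs2* (NM_007706), the inhibitor best known for restraining growth hormone signals through STAT5, was uneven within groups. It had 20.1, 5.15 and 6.35 CPM in KO, 18.3, 12.6 and 11.1 in KO-con, 10.1, 11.4 and 8.16 in Over, and 3.47, 2.81 and 8.38 in Over-con. KO replicate 1 and Over-con replicate 3 stood apart from the other libraries of their groups. The log2 fold change of KO against KO-con was -0.45 (SE 0.36), and without KO replicate 1 it was -1.28 and became a call. That of Over against Over-con was 0.94 (SE 0.28), and without Over-con replicate 3 it was 1.63 and became a call. KO-con against Over-con gave 1.44 (SE 0.27), and 2.12 without Over-con replicate 3. The transcripts NM_001168655 and NM_001168656 had 11 to 67 counts in a group, and NM_001168657 was at 0. Those 2 scarce transcripts were called in KO-con against Over-con, at 2.39 and 1.61, but not with DESeq2. The call of NM_001168656 was also lost without KO-con replicate 1 or 3 or Over-con replicate 1 or 2.

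*Stat5b* encodes one of the STAT5 proteins themselves. Its transcript NM_001362682 had 6.75, 3.23 and 2.45 CPM in KO, 3.44, 3.81 and 3.38 in KO-con, 3.24, 4.73 and 3.87 in Over, and 4.19, 4.91 and 4.14 in Over-con. Each group overlapped the next in the order of means, the KO-con libraries lay below those of Over-con, and the log2 fold change of KO against KO-con was 0.18 (SE 0.32), which turned to -0.32 without KO replicate 1. The transcript NM_011489 had 24, 42 and 30 counts in KO against 21, 14 and 5 in KO-con. Its log2 fold change was 1.16 (SE 0.36), the one member call in the higher direction. The call was lost without KO-con replicate 2, KO-con replicate 3 or KO replicate 2, with log2 fold changes of 0.86 to 1.65 over the 6 libraries left out in turn. It was also lost with DESeq2, with counts summed per gene and with Over-con in place of KO-con (0.94). The third transcript, NM_001113563, had 2 counts in all, both in Over. Of the 10 genes, 6 were listed as 2 or more transcripts, and reads shared between transcripts may have gone uncounted, so low counts of these genes are not evidence of low expression.

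**Figure D2:**
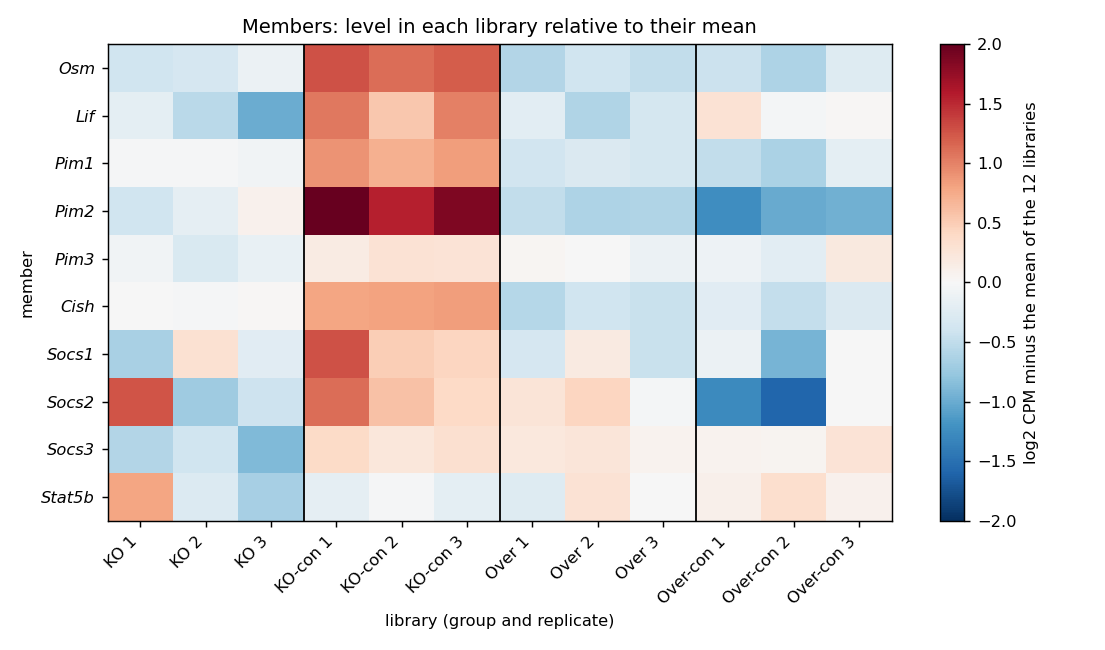
Level of each member in each of the 12 libraries, as log2 CPM minus the mean of the member over the libraries (color scale), for the transcript with the most counts. The KO-con columns are raised for *Osm*, *Lif*, *Pim1*, *Pim2* and *Cish*, with *Pim2* at 1.99, 1.55 and 1.87, and the KO column of replicate 1 is raised for *Socs2*, at 1.26.

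Levels were compared between genes only for the 4 members with 1 transcript, as CPM per kilobase of the longest coding transcript in the mm9 annotation. In KO-con *Osm* was highest, at 168 ± 8.81 CPM per kb (SD, n = 3), above *Socs3* at 113 ± 6.09, *Pim2* at 90.5 ± 13.7 and *Pim3* at 45.5 ± 2.20. In Over-con *Socs3* was highest, at 100 ± 8.80 CPM per kb, above *Osm* at 54.4 ± 7.02, *Pim3* at 37.7 ± 5.55 and *Pim2* at 12.3 ± 1.21. *Pim2* thus exceeded *Pim3* in KO-con and was below it in the other groups. In KO, *Osm* at 60.5 ± 6.35 and *Socs3* at 59.9 ± 9.78 CPM per kb did not differ beyond their spread.

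Counts of calls are given with those of all transcripts tested, a call being a Benjamini-Hochberg adjusted p under 0.05 in edgeR's quasi-likelihood test. In KO against KO-con, 14 member transcripts of 10 genes passed the filter on low counts, and 7 were called lower and 1 higher. Of all 9457 transcripts, 5.96% were called lower and 5.83% higher. The libraries of KO lay below those of KO-con in 9 member transcripts and above in 1, against 14.5% and 15.9% of all transcripts. The median log2 fold change was -0.83 over the members and 0.01 over all transcripts. Since the genes were chosen by these levels, nothing is read from the counts of member calls, here or in the other comparisons.

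In Over against Over-con, 12 member transcripts passed the filter, and 1 was called higher and 0 lower, against 2 and 0 with DESeq2 and 2 and 0 at an unadjusted p under 0.05. Of all 9401 transcripts, 0.766% were called higher and 0.883% lower. Groups did not overlap in 1 member transcript in each direction, against 9.36% of all transcripts in the higher and 9.75% in the lower direction. The median was 0.01 over the members and -0.001 over all transcripts.

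KO-con against Over-con compares the controls and shares the KO-con libraries with the first comparison. Of 15 member transcripts that passed the filter, 10 transcripts of 7 genes were called higher and 0 lower. DESeq2 gave 8 and 0, and an unadjusted p under 0.05 gave 12 and 0. Of all 9321 transcripts, 8.08% were called higher and 8.19% lower. Groups did not overlap in 10 member transcripts in the higher direction and in 1 in the lower, against 16.1% and 16.2% of all transcripts. The gap between the controls was larger than the gap between KO and KO-con for *Pim2*, at 2.89 against -1.95, and for *Pim1*, at 1.24 against -0.85. The same held for *Osm* (1.63 against -1.47), *Cish* (1.13 against -0.81), *Socs1* (1.02 against -0.89) and *Socs2* NM_007706 (1.44 against -0.45). For *Socs3* the gap between the controls was smaller, at 0.18 against -0.92. It was smaller too for *Lif*, at 0.76 against -1.42, and for *Pim3*, at 0.27 against -0.41. With Over-con in place of KO-con, the log2 fold change of KO was 0.92 for *Pim2* and 0.37 for *Pim1*, both called. It was 1.00 for *Socs2* (NM_007706), 0.64 for the second *Pim1* transcript, 0.31 for *Cish*, 0.14 for *Osm* and 0.12 for *Socs1*, none of them called. All of these were negative against KO-con. *Lif* (-0.67) and *Pim3* (-0.15) stayed negative with Over-con in place of KO-con but lost their calls.

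In the difference between the effects of knockout and overexpression, 5 of 15 member transcripts were called lower and 0 higher, against 6 and 0 with DESeq2 and 11 and 0 at an unadjusted p under 0.05. Of 9903 transcripts, 4.52% were called lower and 4.12% higher. The 5 were *Pim2* at -2.45 (SE 0.17), *Osm* at -1.40 (SE 0.12), *Socs3* at -0.95 (SE 0.13), *Pim1* at -0.92 (SE 0.12) and *Cish* at -0.65 (SE 0.11). The difference is computed from the levels that chose the genes, so these values are a description.

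**Figure D3:**
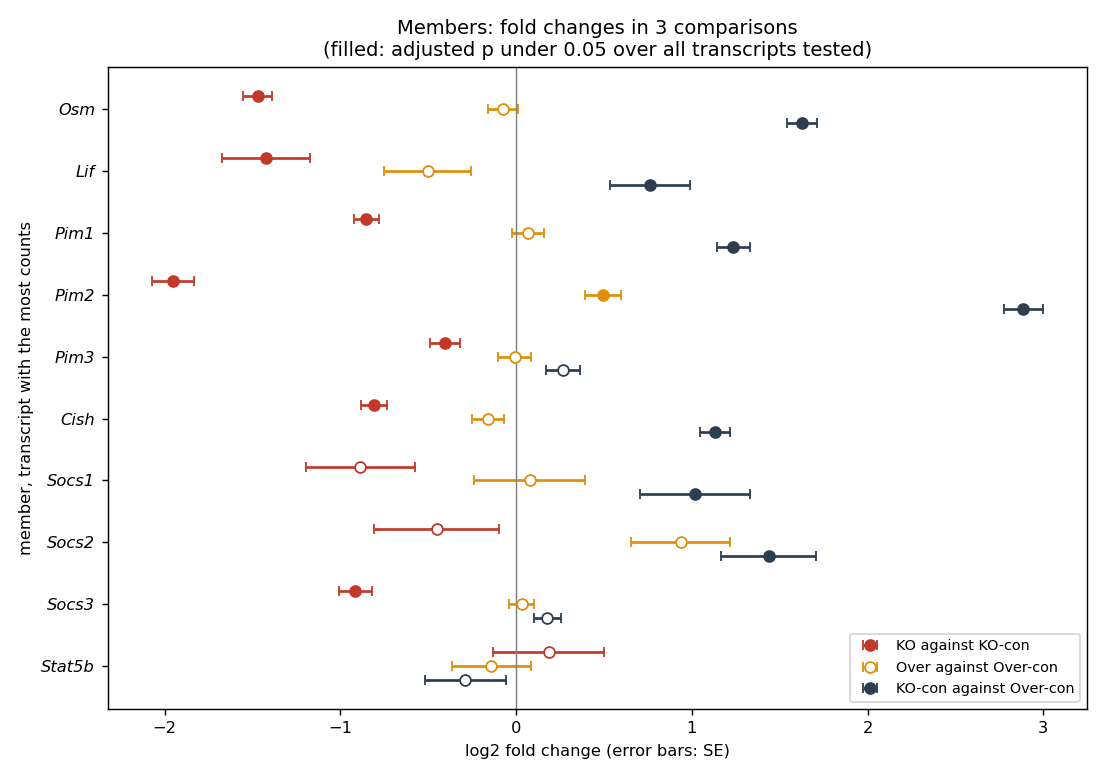
Log2 fold change of each member with its SE in the 3 comparisons, for the transcript with the most counts; filled points mark calls (adjusted p under 0.05). Every member but *Stat5b* lies below 0 in KO against KO-con and above 0 in KO-con against Over-con, though not every point is a call. *Socs3* lies farther from 0 in KO against KO-con, at -0.92, than in KO-con against Over-con, at 0.18.

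Over the 12 libraries, log2 CPM of *Osm*, *Pim1*, *Pim2* and *Cish* varied together, with Pearson's r of 0.94 to 0.97 in each pair. *Socs3* had an r of 0.17 to 0.37 with these genes. The libraries share their groups, and the KO-con libraries are the extreme points of each of the former genes. Among the 9903 transcripts that passed the filter over the 4 groups, those outside the set most like *Osm* were *Setd7* (r = 0.973), *Slc7a5* (0.972), *Bhlhe40* (0.971), *Bcl2* (0.968) and *Slc39a6* (0.967). Those most like *Pim1* were *Ptpn9* (0.978), *Slc7a5* (0.978), *Galnt10* (0.970), *Hemk1* (0.968) and *Nupr1* (0.960). *Slc7a5*, which encodes a subunit of a large neutral amino acid transporter, was on both lists, with 1757 CPM in KO-con, 1363 in KO, 1247 in Over and 1283 in Over-con. *Hemk1* lies on chromosome 9 of mm9, 24907 bases from *Cish*, and had 216 CPM in KO-con, 122 in KO, 79.5 in Over and 82.6 in Over-con.

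The other genes of the pathway came from 8 lists of 83 genes. The lists were chosen with earlier results of these data known, so calls and p-values within them are a description. Of the 83 genes, 40 passed the filter in KO against KO-con as 42 transcripts. Of those transcripts 13 were called lower and 2 higher, and the median log2 fold change was -0.16. Over all 9457 transcripts, 5.96% were called lower and 5.83% higher, which is the background for each list below too. Only 1 of 7 IL-6 family receptors could be tested, gp130 (*Il6st*), with 826 ± 109 CPM (SD, n = 3) in KO and 917 ± 14.7 in KO-con. Its log2 fold change was -0.15 (SE 0.09, adjusted p = 0.311), and with Over-con in place of KO-con it was -0.42 (adjusted p = 0.0165). It was lower in KO-con than in Over-con (-0.26, adjusted p = 0.0144), a call lost without any of the KO-con replicates 1, 2 and 3 or Over-con replicate 1. *Osmr* and *Lifr*, the receptor chains for OSM and LIF, had at most 2 counts in a library. *Jak2*, *Stat3*, *Stat5a*, *Kit*, *Csf2rb*, *Myc* and *Bcl2l1* had at most 11 counts in any transcript. All 9 of these genes are listed as 2 or more transcripts, so their levels cannot be read from these counts. None of the 4 JAK and STAT genes tested was called in any of the 4 comparisons by edgeR or DESeq2, and 0 had an unadjusted p under 0.05. *Jak1* was among them, at -0.01 (SE 0.07, adjusted p = 0.972) in KO against KO-con.

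Among other STAT5 targets, 7 transcripts of 6 genes were tested in KO against KO-con and 4 were called lower and 0 higher, as with DESeq2, and 1 was higher at an unadjusted p under 0.05. *Il2ra*, the alpha chain of the IL-2 receptor, had 132 ± 21.9 CPM (SD, n = 3) in KO and 311 ± 49.2 in KO-con, a log2 fold change of -1.23 (SE 0.12, adjusted p = 5.43e-06). *Bcl2*, which blocks apoptosis, had 650 ± 21.5 CPM in KO and 1004 ± 42.9 in KO-con, a log2 fold change of -0.62 (SE 0.07, adjusted p = 2.26e-05). Its scarcer transcript NM_177410 fell by 0.91 on the log2 scale (adjusted p = 0.00889). *Ccnd2*, which encodes cyclin D2, fell by 0.34 on the log2 scale (adjusted p = 0.00294). *Mcl1*, another survival gene, had a log2 fold change of -0.08 (SE 0.08, adjusted p = 0.588). These 4 calls held without any one of the 6 libraries, and with Over-con in place of KO-con *Il2ra* and *Ccnd2* stayed lower (-1.03 and -0.43), whereas *Bcl2* lost its calls and stood at 0.06 for the main transcript. *Bcl2* had the pattern of *Osm*, with 1004 CPM in KO-con against 621 ± 27.4 in Over-con (adjusted p = 4.82e-07). *Il2ra* had that of *Socs3*, with 250 ± 11.1 CPM in Over and 268 ± 19.4 in Over-con, where KO-con against Over-con gave 0.22 (SE 0.09, adjusted p = 0.126).

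Of 10 STAT3 targets listed, 5 could be tested, and of these 4 were called lower in KO and 1 higher. *Junb*, a subunit of the AP-1 factor, had 72.4 ± 4.42 CPM (SD, n = 3) in KO and 114 ± 7.95 in KO-con, a log2 fold change of -0.65 (SE 0.08, adjusted p = 6.73e-05). *Bcl3* had -0.75 (SE 0.10, adjusted p = 0.000184), *Cebpd* -0.55 (SE 0.11, adjusted p = 0.00414) and *Icam1* -0.34 (SE 0.08, adjusted p = 0.0155). *Klf4* rose, with 120 ± 11.8 CPM in KO and 89.0 ± 1.21 in KO-con and a log2 fold change of 0.44 (SE 0.08, adjusted p = 0.00203). The call of *Icam1* was lost without KO-con replicate 1, KO-con replicate 3 or KO replicate 2, with an adjusted p of up to 0.094, and the other 4 held. With Over-con in place of KO-con, *Junb* (-0.51), *Bcl3* (-0.63) and *Klf4* (0.56) kept their calls, *Cebpd* (-0.42, adjusted p = 0.27) lost it and *Icam1* turned to 0.22 (adjusted p = 0.369).

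The IL-6 family cytokine list held *Ebi3*, a subunit of IL-27, which had 1.71 ± 0.27 CPM (SD, n = 3) in KO and 4.74 ± 1.29 in KO-con (log2 fold change -1.45, adjusted p = 0.00255). It was 1 of 2 genes tested of 9. Of 6 receptors that signal through STAT5, *Csf2ra* was higher in KO by 0.43 (adjusted p = 0.0166), a call lost without KO-con replicate 1, KO-con replicate 3 or KO replicate 2. *Epor*, the erythropoietin receptor, fell by 0.45 on the log2 scale (adjusted p = 0.029), a call lost without any of KO-con replicates 1, 2 and 3 or KO replicates 1 and 2. *Ptpn1*, a phosphatase that acts on JAK kinases, was the 1 call among 10 other inhibitors tested, and it fell by 0.37 on the log2 scale (adjusted p = 0.00593). With Over-con in place of KO-con the call of *Ebi3* held, at -2.08, and those of *Csf2ra* (0.30), *Ptpn1* (-0.03) and *Epor* (-0.46, adjusted p = 0.174) were lost. Of 7 transcripts of PIM substrates, 2 were called lower, *Eif4ebp1* at -0.30 (adjusted p = 0.0441) and *Cdkn1a* at -1.26 (adjusted p = 0.0459), and the call of each was lost without KO-con replicate 1, KO-con replicate 2 or KO replicate 1, that of *Eif4ebp1* also without KO replicate 2 and that of *Cdkn1a* also without KO-con replicate 3 or KO replicate 3. With Over-con in place of KO-con both calls were lost, at 0.0043 (adjusted p = 0.993) for *Eif4ebp1* and -1.02 (adjusted p = 0.223) for *Cdkn1a*. *Epor*, *Eif4ebp1* and *Cdkn1a* were named after their values in KO were seen.

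**Figure D4:**
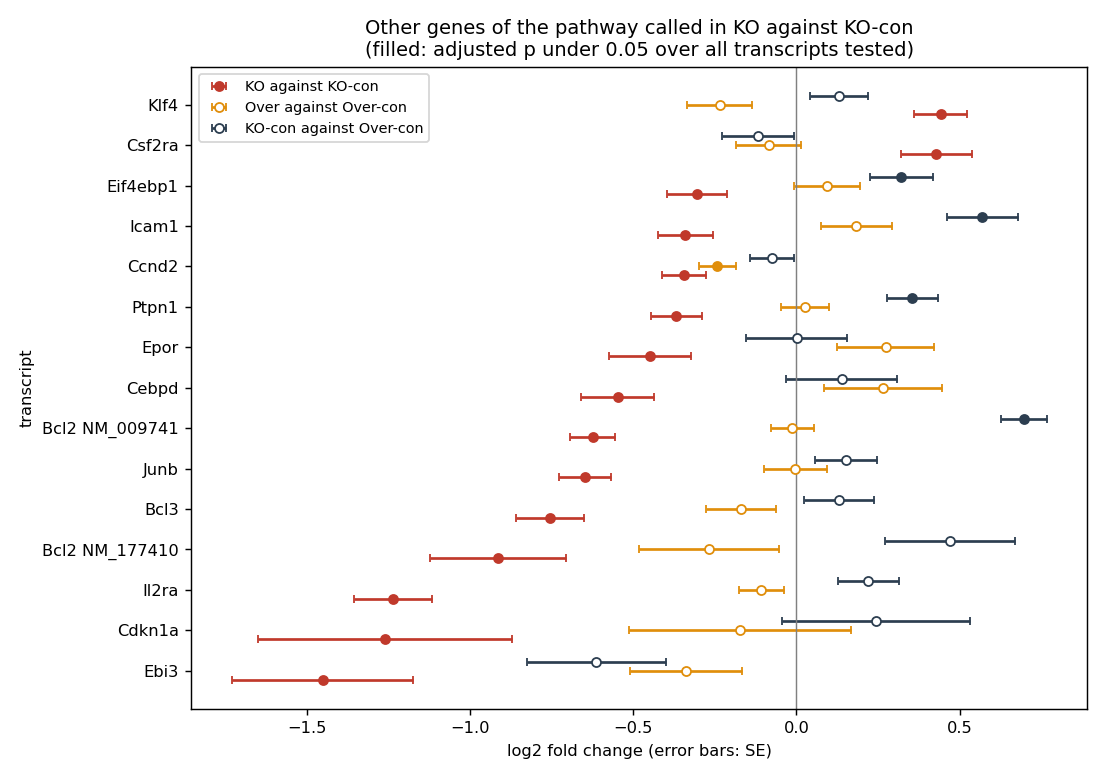
Log2 fold change with its SE, in 3 comparisons, of the 15 transcripts of other pathway genes called in KO against KO-con; filled points mark calls (adjusted p under 0.05). *Ebi3*, at -1.45, and *Il2ra*, at -1.23, lie among the lowest in KO against KO-con, and *Klf4*, at 0.44, and *Csf2ra*, at 0.43, lie above 0.

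In Over against Over-con, 2 of 42 pathway transcripts were called lower and 0 higher, as with DESeq2, against 6 and 0 at an unadjusted p under 0.05. Of all 9401 transcripts, 0.883% were called lower and 0.766% higher. *Il2rb*, the beta chain of the IL-2 receptor, had 6.79 ± 1.00 CPM (SD, n = 3) in Over and 11.6 ± 1.28 in Over-con (log2 fold change -0.79, adjusted p = 0.0222). *Ccnd2* had a log2 fold change of -0.24 (adjusted p = 0.0389). The call of *Il2rb* was lost without Over replicate 1, Over replicate 3 or Over-con replicate 1, with an adjusted p of up to 0.139. That of *Ccnd2* was lost without any of Over replicates 1, 2 and 3 and Over-con replicates 1 and 2, with an adjusted p of up to 0.264. In KO-con against Over-con, where 8.08% of all 9321 transcripts were called higher and 8.19% lower, 4 of 41 pathway transcripts were called higher and 3 lower. Beside *Bcl2*, *Il6st* and *Eif4ebp1* (0.32, adjusted p = 0.0266) they were *Icam1* at 0.57 (SE 0.11, adjusted p = 0.000789), *Ptpn1* at 0.36 (SE 0.08, adjusted p = 0.00263), *Il2rb* at -1.58 (SE 0.19, adjusted p = 5.53e-06) and *Socs5*. The call of *Eif4ebp1* was lost without KO-con replicate 1 or 2 or Over-con replicate 1 or 2. *Socs5*, an inhibitor outside the set, fell by 0.29 on the log2 scale (adjusted p = 0.00563), a call lost without KO-con replicate 2 (adjusted p = 0.0504). In the difference between the effects, 9 of 43 pathway transcripts were called lower and 4 higher, against 4.52% and 4.12% of all 9903 transcripts. The calls of *Il2ra* at -1.13 (SE 0.15, adjusted p = 8.37e-05), *Bcl2* at -0.61 (SE 0.09, adjusted p = 0.000214), *Klf4* at 0.68 (SE 0.14, adjusted p = 0.00299) and *Junb* at -0.64 (SE 0.13, adjusted p = 0.00425) held without any one library.

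The other calls in this difference were each lost without at least 1 library. *Bcl3* had -0.59 (adjusted p = 0.0201), lost without Over replicate 2, and *Ptpn1* had -0.39 (adjusted p = 0.0253), lost without KO-con replicate 1, Over replicate 2 or Over-con replicate 2. *Il2rb* had 1.01 (adjusted p = 0.0207) and *Ccnd1*, which encodes cyclin D1, had 0.36 (adjusted p = 0.0237). Both were lost without KO replicate 2, Over replicate 1 or Over replicate 3, *Il2rb* also without KO-con replicate 1 and *Ccnd1* also without KO-con replicate 2. *Icam1* had -0.52 (adjusted p = 0.0265), lost without KO-con replicate 1 or 3, Over replicate 2 or Over-con replicate 1 or 2. *Ebi3* had -1.11 (adjusted p = 0.0267), lost without KO-con replicate 1, KO replicate 3, Over replicate 1 or 2 or Over-con replicate 1. *Epor*, at -0.72 (adjusted p = 0.0376), held only without KO-con replicate 3, KO replicate 2, KO replicate 3 or Over-con replicate 3. *Csf2ra*, at 0.51 (adjusted p = 0.0384), held only without KO-con replicate 2, KO replicate 1 or Over-con replicate 2.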

How the data were processed

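Groups (4, with 3 RNA-seq libraries each) were taken from the sample titles. Reads were trimmed by the authors and mapped to mm9 with HISAT2, and raw counts per RefSeq transcript were deposited, not normalized. The strand setting, annotation release and treatment of reads shared between transcripts are not given in the sources used here.

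Symbols for 41186 of 41388 transcripts came from RefSeq (GRCm38.p6), and 95.7% of counts fell on genes with 1 transcript. The members and gene lists were chosen with earlier results of these data known. Comparisons used the deposited counts in edgeR 4.0.16 (TMM, filterByExpr, glmQLFit, glmQLFTest), each p being adjusted by Benjamini-Hochberg across the transcripts in the fit, with a threshold of 0.05. Comparisons of 2 groups used their 6 libraries, and the difference between effects used all 12. CPM were normalized with TMM over all 12 libraries. The correlations used log2 CPM with a prior count of 2.

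Named were all members, up to 12 called pathway genes per comparison by lowest p, 11 genes named whatever their values, and the 5 transcripts most like *Osm* and *Pim1*. Replicate numbers were not taken as pairs, since residuals of libraries with the same number had correlations of -0.152 to 0.0569. Alternatives were DESeq2 1.42.0, its size factors, no filter, counts summed per gene, 1 fit over all libraries, the replicate block, the other control, a fold threshold and each library left out. On simulated data for KO against KO-con (9454 transcripts), the steps recovered 198 of 200 changed transcripts with 12 false calls. The changed transcripts were drawn from well-counted ones, at folds of 1.5 to 4, with a common dispersion for all. The rate thus does not cover scarce members such as *Lif*, *Socs1* and *Stat5b*. Genome positions came from the mm9 annotation. R 4.3.3 and Python were used.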

Additional observations from a re-analysis of the deposited data

How the results depend on the processing

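With Over-con in place of KO-con, KO gave 737 calls over all transcripts, 3 over member transcripts (*Pim2* and *Pim1* higher, *Socs3* lower) and 9 over pathway transcripts, and the log2 fold changes of *Pim2* (0.92), *Pim1* (0.37), *Cish* (0.31), *Osm* (0.14), *Socs1* (0.12), *Socs2* NM_007706 (1.00), *Pim1* NM_001364913 (0.64), *Bcl2* (0.0598), *Icam1* (0.22), *Mcl1* (0.0827) and *Eif4ebp1* (0.0043) turned positive, and that of *Stat5b* NM_001362682 turned to -0.12. With KO-con in place of Over-con, Over gave 2026, 10 and 15 calls, *Pim2* turned to -2.39 and *Il2rb* to 0.79. The cause was not tested.

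With an absolute log2 fold change over 1 required as well, calls over all transcripts, members and pathway transcripts were 161, 4 and 3 in KO against KO-con, 16, 0 and 0 in Over against Over-con, and 188, 2 and 3 in the difference between the effects. In KO-con against Over-con 201 transcripts, 9 member transcripts and 1 pathway transcript passed. Over against Over-con, with 155 calls over all transcripts, was the least stable. It gave 302 calls without a filter, 2 member calls without a filter or with DESeq2, and 0 member calls with all 12 libraries in 1 fit. Without a filter, 8 members were called in the difference between the effects. With the replicate block, Over against Over-con gave 67 calls, 0 of them in members and 0 in pathway transcripts, and no other count moved by over 1.5 times; same-numbered libraries share only a number.

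With 1 library left out, KO against KO-con gave 613 (without KO-con replicate 1) to 1271 calls (without KO replicate 1), with 664, 722 and 715 without KO-con replicate 2, KO-con replicate 3 and KO replicate 2. Over against Over-con gave 48 (without Over replicate 3) to 719 (without Over-con replicate 3), with 0 to 2 member and 0 to 7 pathway calls. The highest of each came without Over-con replicate 3. KO-con against Over-con gave 882 (without KO-con replicate 1) to 1988 (without Over-con replicate 3), and 998 without Over-con replicate 1. The difference between the effects gave 536 (without Over replicate 2) to 1126 (without Over-con replicate 3), with 5 to 8 member and 6 to 13 pathway calls. Over all alternatives, 735 member log2 fold changes moved by less than the spread between replicates, 31 moved by more and 5 called values changed sign. Of those of named pathway genes, 446 kept their direction and side of the threshold, 100 lost a call, 1 gained one and 5 changed sign. Transcripts with under 100 counts in a group, the main ones of *Lif* and *Socs1* and *Stat5b* NM_011489 among them, are limited by their few counts.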
